A study of Hemigymnus melapterus and Thalassoma lunare and Coris batuensis with 46 samples.

Results

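A set of 116 transcripts, of the 1936 with at least 100 counts in all (5.99%) and the 26788 listed, split 5 wrasse species into 2 against 3 by their level in the forebrain along lines other than cleaning status. They were chosen from the measured values. Levels as CPM, the counts of a transcript scaled to the same total in every library, were averaged within each species, L was log2 of that mean plus 10, and the 5 values of L were sorted. A transcript was taken if the largest step between neighbouring values, called the gap here, was 1 or more and fell between 2 species on one side and 3 on the other. The pair of non-cleaners, Coris with Labrichthys, was left out, so each transcript belongs to 1 of 9 pairs of species. The values below therefore describe these species means and the fish behind them, and no test was made of the split itself. Tests between the species of a pair and by status use the same species levels, and their counts are given as a description beside the share of all tested transcripts.

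The libraries came from female fish of Halichoeres melanurus, Hemigymnus melapterus and Thalassoma lunare, which the labels call facultative cleaners, and of Coris batuensis and Labrichthys unilineatus, which they call non-cleaners. The choice used 8, 9, 9, 9 and 8 libraries of these species in that order, 43 of 46. The labels name no treatment, and fish went from capture to death in 6 to 28 minutes. The tissue was 1 slice, 300 µm thick, with the pallial areas Dl and Dm and parts of the septum and striatum. The species are called by genus from here on.

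Cleaner wrasses pick parasites and mucus off other fish, and a facultative cleaner does so only part of the time or part of its life. Dl and Dm are pallial areas of the teleost forebrain that have been compared with the mammalian hippocampus and basolateral amygdala and that take part in spatial and emotional learning. In 3′ tag sequencing each read comes from near the polyadenylated end of a transcript, so a count needs no correction for length, but a read is counted only if that end aligns to the reference. One list of identifiers, which begin with ENSONIT, served for every species. The files pair them with no gene name, so functions, pathway lists, cell type markers and sequences could not be given, and the tissue label was not checked against markers. In tissue of this kind, fewer cells of a type and less RNA per cell cannot be told apart, and a level in 1 species relative to another also depends on how well its reads align.

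Library size ran from 14800 to 53987 counts with a median of 33899, so 1 count was worth 18.5 to 67.6 CPM. At this depth a level of 0 in a fish means less than 1 count, not absence. Intervals from counts would cover counting error at most, not the spread between fish. The labels mention no molecular identifiers, so copies of a molecule made by PCR cannot be told apart. In the second set of deposited tables, counted on identifiers that begin with Ldim_g, the share of reads listed as not aligned was 58.8% ± 0.989 in Halichoeres (SD, n = 8), 51.4% ± 1.16 in Hemigymnus (n = 9), 61.1% ± 1.39 in Thalassoma (n = 9), 58.1% ± 0.594 in Coris (n = 9) and 47.05% ± 1.21 in Labrichthys (n = 8). Hemigymnus and Labrichthys, the 2 species with the lowest shares, form a pair with 14 transcripts. Thalassoma and Labrichthys, with the highest and the lowest share, form a pair with 13. Halichoeres and Coris, with close shares, form the largest pair, with 27. The shares belong to the Ldim_g tables, while these transcripts are ENSONIT ones, for which no such share is listed. On the Ldim_g counts the same rule gave these pairs 32, 22 and 36 genes, in that order. The part of alignment in the splits was not tested. The 3 libraries left out of the choice were Thalassoma lunare 4, Halichoeres melanurus 2 and Hemigymnus melapterus 4. The library labelled Hemigymnus melapterus 4 was the smallest, with 6936 counts. On these transcripts Thalassoma lunare 4 lay mostly with Halichoeres and Halichoeres melanurus 2 mostly with Thalassoma. With all 46 libraries taken as labelled, 129 transcripts met the rule, 78 of them in the same pair and direction as with 43.

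The 116 transcripts were spread over all 9 pairs. In 53 the pair was higher than the other 3 species and in 63 it was lower. Halichoeres with Coris held the most, 27 transcripts, of which 9 were higher and 18 lower in the pair. Halichoeres with Labrichthys had 15 (7 higher, 8 lower), Hemigymnus with Labrichthys 14 (5 higher, 9 lower) and Thalassoma with Labrichthys 13 (8 higher, 5 lower). Halichoeres with Thalassoma had 12 (2 higher, 10 lower), Hemigymnus with Coris 11 (9 higher, 2 lower) and Hemigymnus with Thalassoma 10 (5 higher, 5 lower). Halichoeres with Hemigymnus had 7 (5 higher, 2 lower), as did Thalassoma with Coris (3 higher, 4 lower). Halichoeres was one of the pair in 61 transcripts, Coris in 45, and Hemigymnus, Thalassoma and Labrichthys in 42 each. With Coris and Labrichthys left out as a pair, these 2 species had fewer pairs to fall in than the other 3. The numbers per species are therefore not on an equal footing.

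The split by status, Coris with Labrichthys, met the same rule in 14 transcripts (7 higher, 7 lower in these non-cleaners), which are not among the 116. That is as many as Hemigymnus with Labrichthys and fewer than 2 of the 9 other pairs. Among all 578 transcripts with a gap of 1 or more, 130 were split 2 against 3 and 448 had 1 species apart, which was high in 273 and low in 175. On the Ldim_g counts of the same fish the rule took 188 of 1755 genes (10.7%), 93 with the pair higher and 95 with it lower. There Halichoeres with Coris again held the most, 36, then Hemigymnus with Labrichthys with 32, Halichoeres with Thalassoma with 26 and Thalassoma with Labrichthys with 22. The status split had 9. The 2 sets of identifiers come from the same libraries and are no independent fish.

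**Figure D1:**
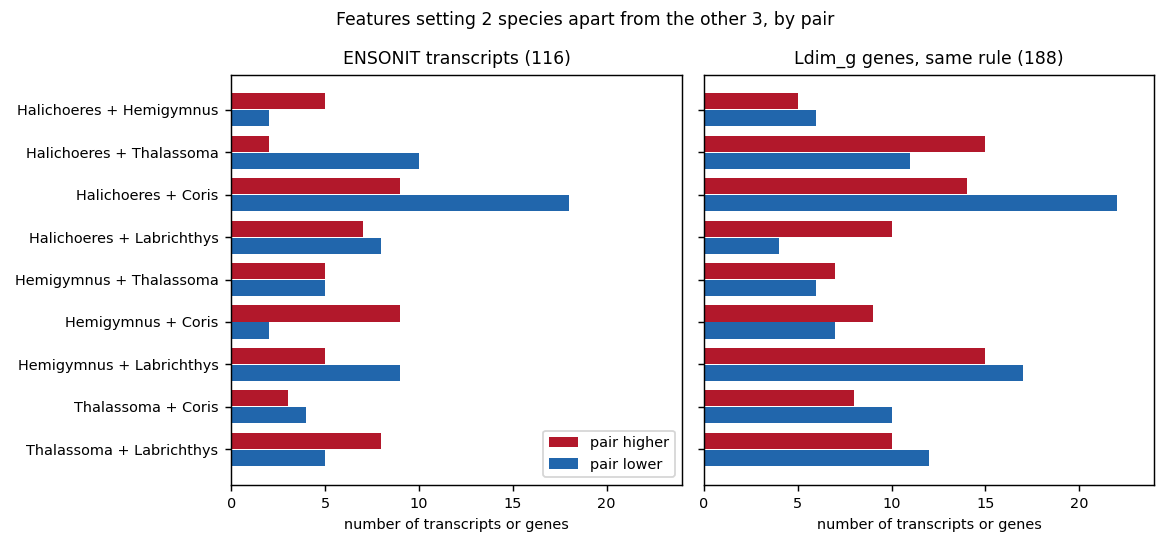
Number of ENSONIT transcripts (left) and Ldim_g genes (right) that set each pair of species apart from the other 3, with the pair higher or lower (horizontal axis, number of identifiers). The longest bars in both sets are those of Halichoeres with Coris lower, with 18 transcripts and 22 genes.

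The gap ran from 1.01 to 4.22 with a median of 1.45 on the log2(CPM + 10) scale, which understates the difference of low transcripts. It was 2 or more in 23 transcripts and under 1.5 in 66. Just inside the threshold lay ENSONIT00000019098.1 with a gap of 1.01, and just outside it ENSONIT00000017359.1 with 0.997. Total counts ran from 102 to 3375 with a median of 172.5, against 191.5 for all 1936 transcripts, and 71 of the 116 had fewer than 200 counts over 43 fish. Together they held 2.38% of all counts. In 7 of them at least 1 species had no count at all.

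Single fish followed the split of the species means unevenly. With a line drawn midway between the 2 values of L beside the gap, 30 to 43 of the 43 fish lay on their own side, with a median of 39, and in 9 transcripts all 43 did. In 17 of the 116 no fish of the pair overlapped any fish of the other 3 species. Over all 1936 transcripts, 0.981% had such a split for any of the 9 pairs, and since the rule used these fish nothing is read from that difference. The spread between fish of a species, as the chi-square per degree of freedom around the species mean with counting error alone set at 1, had a median of 1.32 (0.635 to 15.7) in the 116 and 1.21 in all 1936. It was over 2 in 12.9% of the 116 and in 12.4% of all.

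The members varied in how close the 2 species of the pair lay and how far the other 3 were spread. Within the pair L differed by a median of 0.35 and by 2.02 at most, while the range among the other 3 had a median of 0.84 and reached 2.05. In 61 of the 116 both spreads were under 1, and in 19 both were under 0.5. When each of the 43 libraries was left out in turn, 62 of the 116 (53.4%) met the rule every time. Of the rest, 11 left it only because their total fell under 100. The other 43 left it at least once because the gap or the split changed, and some of these also left it by their total.

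**Figure D2:**
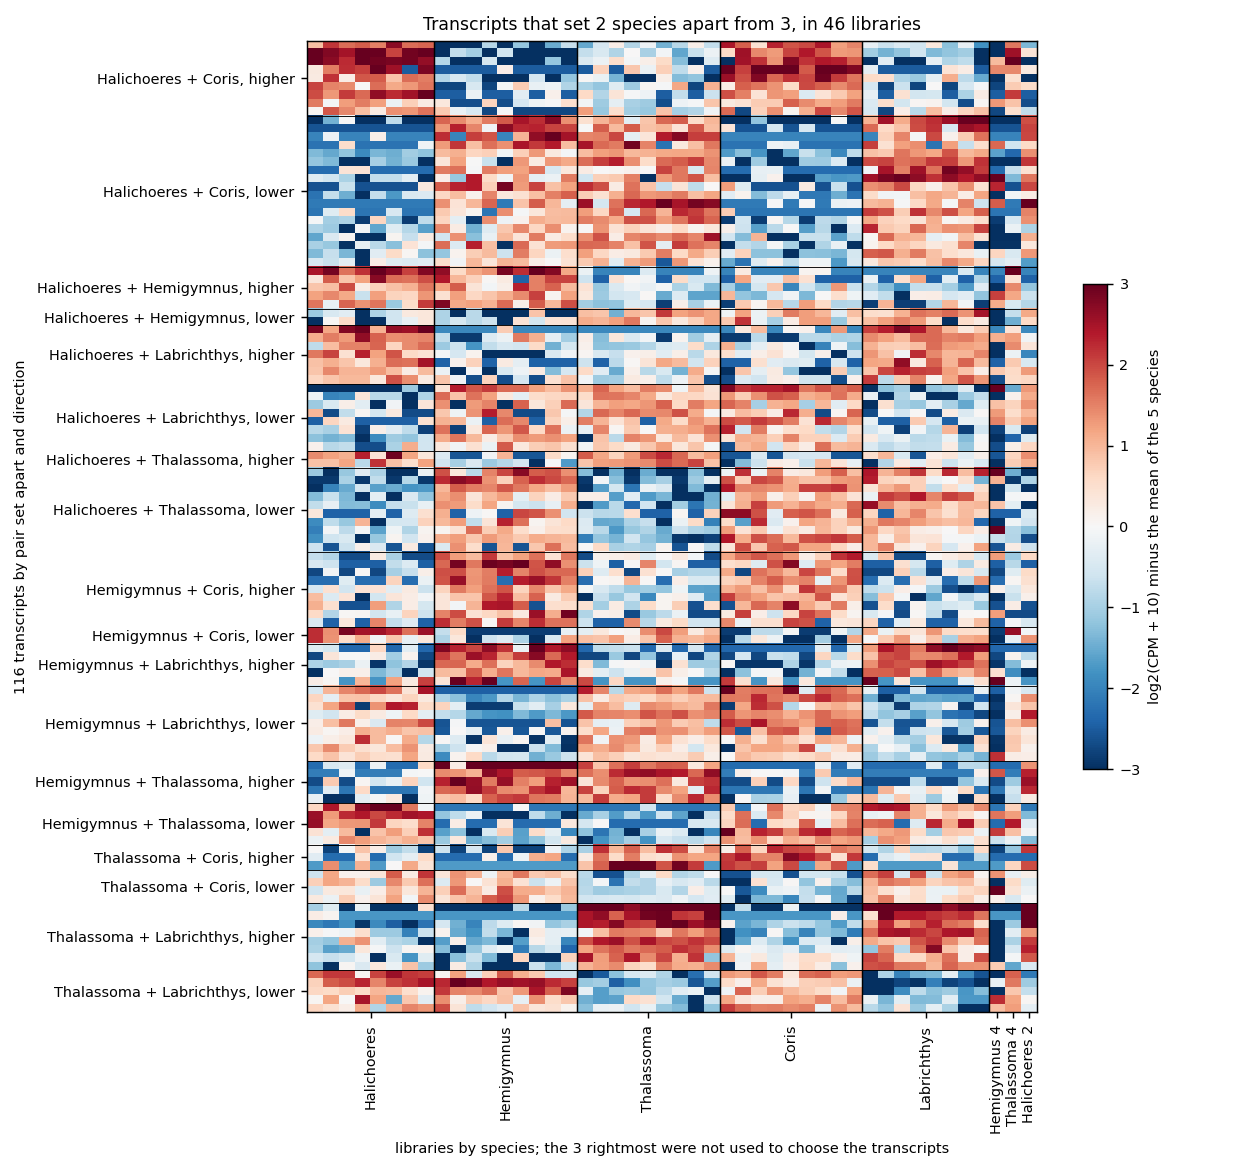
Level of each of the 116 transcripts (rows, by pair and direction) in each of 46 libraries (columns, by species), as log2(CPM + 10) minus the mean of the 5 species values, with red higher and blue lower. The blocks follow the 9 pairs by construction, and of the 3 rightmost libraries, not used in the choice, the last 2 run mostly against their labelled species where Thalassoma and Halichoeres are on opposite sides (64 and 69 of 79 transcripts).

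Halichoeres with Hemigymnus, both cleaners, were set apart by 7 transcripts. ENSONIT00000016807.1 ran from 113 to 377 CPM (median 229) in the 8 Halichoeres fish and from 48.5 to 335 CPM (median 174) in the 9 Hemigymnus fish. It ran from 0 to 37.3 CPM (median 0) in the 9 Coris fish, from 0 to 25.7 CPM (median 0) in the 9 Thalassoma fish and from 0 to 18.8 CPM (median 0) in the 8 Labrichthys fish. Every fish of the pair was above every other fish, the only such case among the 5 higher transcripts of this pair (0.0517% of the 1936 split this way), and the gap was 3.12. ENSONIT00000014812.1 averaged 161 ± 86.99 CPM in Halichoeres and 123 ± 91.1 CPM in Hemigymnus (SD, n = 8 and 9), against 36.6 ± 42.7 CPM in Coris, 33.2 ± 39.2 CPM in Labrichthys and 32.6 ± 24.4 CPM in Thalassoma (SD, n = 9, 8 and 9). Its pair overlapped the rest, since 7 of the 17 fish of the pair were below the highest other fish, and the gap was 1.51. Both had little more than the minimum of 100 counts. ENSONIT00000016807.1 fell under it without Hemigymnus melapterus 8 or Halichoeres melanurus 3, 6 or 7 (98 to 99 counts), and ENSONIT00000014812.1 did so without Hemigymnus melapterus 8, 9 or 10 or Halichoeres melanurus 6 (97 to 99 counts).

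Lower in this pair, ENSONIT00000011309.1 ran from 0 to 97.2 CPM (median 48.3) in the 8 Halichoeres fish and from 0 to 144 CPM (median 0) in the 9 Hemigymnus fish. The rest ranged from 107 to 463 CPM (median 218) in the 8 Labrichthys fish, from 20.95 to 358 CPM (median 156) in the 9 Thalassoma fish and from 56.6 to 238 CPM (median 147) in the 9 Coris fish. Most Hemigymnus fish had no count of it, and 10 of the 17 fish of the pair were above the lowest other fish. Without Hemigymnus melapterus 7, the highest fish of the pair, the largest step, 1.67, set Hemigymnus alone apart. ENSONIT00000025677.1 had 49.3 ± 45.6 CPM in Halichoeres and 58.5 ± 37.1 CPM in Hemigymnus (SD, n = 8 and 9), against 154 ± 50.7 CPM in Thalassoma, 136 ± 107 CPM in Coris and 135 ± 72.3 CPM in Labrichthys (SD, n = 9, 9 and 8). Of the 26 other fish 9 were under the highest fish of the pair. Its gap of 1.08 was 0.762 without Coris batuensis 1, 0.938 without Hemigymnus melapterus 5, 0.944 without Labrichthys unilineatus 2 and 0.996 without Labrichthys unilineatus 4. The only transcript of this pair kept for edgeR did not pass the test of Halichoeres against Hemigymnus (edgeR quasi-likelihood test, adjusted p = 0.71), as 45.9% of the 701 tested did at an adjusted p below 0.05.

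Halichoeres with Thalassoma, also cleaners, were lower in 10 of their 12 transcripts. ENSONIT00000009836.1 ran from 0 to 64.8 CPM (median 28.9) in the 8 Halichoeres fish and from 0 to 25.8 CPM (median 0) in the 9 Thalassoma fish. In the others it ranged from 115 to 445 CPM (median 296) in the 8 Labrichthys fish, from 38.5 to 555 CPM (median 287) in the 9 Hemigymnus fish and from 64.3 to 373 CPM (median 147) in the 9 Coris fish. Only 2 of the 26 other fish reached down into the range of the pair, and the gap was 2.30. ENSONIT00000012351.1 averaged 11.7 ± 16.2 CPM in Halichoeres and 22.9 ± 21.9 CPM in Thalassoma (SD, n = 8 and 9), against 293 ± 117 CPM in Hemigymnus, 187 ± 68.2 CPM in Coris and 115 ± 108 CPM in Labrichthys (SD, n = 9, 9 and 8). Again 2 of 26 other fish lay under the highest fish of the pair, with a gap of 1.93. Of the 17 fish of the pair, 9 were above the lowest other fish, a Labrichthys at 18.5 CPM. No transcript of this pair had a full separation of fish, which 0.0517% of the 1936 showed with this pair higher and none with it lower.

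Of the 2 transcripts that were higher in this pair, ENSONIT00000005631.1 ran from 64.8 to 434 CPM (median 126) in the 8 Halichoeres fish and from 83.8 to 275 CPM (median 133) in the 9 Thalassoma fish. The other species ranged from 0 to 107 CPM (median 56.5) in the 8 Labrichthys fish, from 0 to 109 CPM (median 34.3) in the 9 Hemigymnus fish and from 0 to 32.1 CPM (median 0) in the 9 Coris fish. All fish of the pair had counts of it, and 4 of these 17 lay below the highest other fish, with a gap of 1.42. ENSONIT00000016254.1 had 232 ± 131 CPM in Halichoeres and 312 ± 95.2 CPM in Thalassoma (SD, n = 8 and 9), against 96.2 ± 65.6 CPM in Coris, 80.7 ± 45.1 CPM in Labrichthys and 54.7 ± 29.96 CPM in Hemigymnus (SD, n = 9, 8 and 9). Its gap of 1.19 was 0.925 without Halichoeres melanurus 6, the highest fish. With all 46 libraries this pair held 31 transcripts in place of 12, the largest change of any pair. Of its 6 tested transcripts 1 differed between Halichoeres and Thalassoma (edgeR, adjusted p below 0.05), where 44.4% of all tested did.

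Halichoeres with Coris, a cleaner and a non-cleaner, made up the largest group. Among the 9 that were higher, ENSONIT00000015821.1 ran from 177 to 639 CPM (median 318) in the 8 Halichoeres fish and from 129 to 541 CPM (median 358) in the 9 Coris fish. Levels elsewhere were from 18.5 to 115 CPM (median 60.8) in the 8 Labrichthys fish, from 24.7 to 105 CPM (median 51.3) in the 9 Thalassoma fish and from 0 to 52.3 CPM (median 0) in the 9 Hemigymnus fish. The fish did not overlap, and the 2 species of the pair had nearly the same median while Hemigymnus was below Thalassoma and Labrichthys, with a gap of 2.34. ENSONIT00000004148.1 averaged 693 ± 162 CPM in Halichoeres and 321 ± 142 CPM in Coris (SD, n = 8 and 9), against 57.2 ± 21.9 CPM in Thalassoma, 31.4 ± 15.5 CPM in Labrichthys and 15.7 ± 23.96 CPM in Hemigymnus (SD, n = 9, 8 and 9). Here too no fish overlapped, but the pair itself was graded, with Halichoeres above Coris by 1.01 on the log2 scale (SE 0.22, edgeR). These are the only 2 of the 9 with full separation, a split that 0.103% of the 1936 showed.

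Lower in Halichoeres and Coris, ENSONIT00000020169.1 ran from 0 to 84.8 CPM (median 0) in the 8 Halichoeres fish and from 0 to 84.9 CPM (median 0) in the 9 Coris fish. The other species had levels from 185 to 871 CPM (median 484) in the 8 Labrichthys fish, from 192 to 618 CPM (median 309) in the 9 Hemigymnus fish and from 66.7 to 326 CPM (median 179.6) in the 9 Thalassoma fish. Its median was 0 in both species of the pair, and 1 of the 26 other fish, a Thalassoma, was under the highest fish of the pair, Coris batuensis 8, giving a gap of 2.75. ENSONIT00000010667.1 had 0 CPM in all 8 Halichoeres fish and 14.6 ± 24.2 CPM in Coris (SD, n = 8 and 9), against 227 ± 101 CPM in Hemigymnus, 194 ± 116 CPM in Labrichthys and 127 ± 59.9 CPM in Thalassoma (SD, n = 9, 8 and 9). The median fish of the pair had no count, and 3 of the 26 other fish were under the highest in the pair, Coris batuensis 10, with a gap of 2.48. Of the 18 lower transcripts 1 had no overlap of fish (0.0517% of the 1936). Between Halichoeres and Coris, 4 of the 13 tested transcripts differed, against 36.1% of all tested. With 46 libraries the group shrank to 14, the reverse of Halichoeres with Thalassoma.

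Halichoeres with Labrichthys were set apart by 15 transcripts. Lower in the pair, ENSONIT00000016266.1 ran from 0 to 31.03 CPM (median 0) in the 8 Halichoeres fish and from 0 to 56.3 CPM (median 27.8) in the 8 Labrichthys fish. Elsewhere it ran from 255 to 608 CPM (median 373) in the 9 Coris fish, from 103 to 437 CPM (median 273) in the 9 Hemigymnus fish and from 69.8 to 283 CPM (median 173) in the 9 Thalassoma fish. All 43 fish were on their own side with no overlap, the only such case among the 8 lower transcripts of this pair (0.0517% of the 1936), and 7 of 8 Halichoeres fish had no count of it. The gap was 2.53. ENSONIT00000019783.1 averaged 68.1 ± 55.04 CPM in Halichoeres and 52.4 ± 47.6 CPM in Labrichthys (SD, n = 8 and 8), against 359 ± 95.8 CPM in Coris, 275 ± 106 CPM in Thalassoma and 256 ± 116 CPM in Hemigymnus (SD, n = 9, 9 and 9). It was present in both species at a reduced level, and 3 of the 27 other fish fell under the highest fish of the pair (gap 1.77).

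Higher in the pair, ENSONIT00000013642.1 ran from 68.6 to 486 CPM (median 241) in the 8 Halichoeres fish and from 37.5 to 263 CPM (median 132) in the 8 Labrichthys fish. In the remaining species it ran from 0 to 84.9 CPM (median 29.8) in the 9 Coris fish, from 0 to 54.6 CPM (median 0) in the 9 Hemigymnus fish and 0 CPM in all 9 Thalassoma fish. No Thalassoma fish and 1 Hemigymnus fish had a count of it, Coris was the nearest species, and the gap was 1.93. It had 106 counts in all, so leaving out Halichoeres melanurus 1, 4, 7, 8 or 9 or Labrichthys unilineatus 1, 2 or 4 brought it under the minimum of 100, to 91 to 99, while the gap stayed at 1.73 or more. ENSONIT00000004313.1 had 223 ± 98.4 CPM in Halichoeres and 188 ± 33.4 CPM in Labrichthys (SD, n = 8 and 8), against 62.6 ± 69.1 CPM in Hemigymnus, 47.7 ± 27.8 CPM in Thalassoma and 17.1 ± 16.2 CPM in Coris (SD, n = 9, 9 and 9). Of the 27 other fish 2 were above the lowest fish of the pair, and 12 of the 16 fish of the pair were below the highest other fish, with a gap of 1.44. None of the 5 tested transcripts passed the test of Halichoeres against Labrichthys at an adjusted p below 0.05 by edgeR or DESeq2. In edgeR 40.5% of all tested transcripts passed at that level. At an unadjusted p below 0.05 in edgeR, 2 of the 5 passed. The share of all tested transcripts at that unadjusted level is not given, so nothing is read from this count.

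Hemigymnus with Thalassoma, both cleaners, had 10 transcripts, 5 in each direction. ENSONIT00000020119.1, higher in the pair, ran from 48.5 to 1265 CPM (median 538) in the 9 Hemigymnus fish and from 51.6 to 200.1 CPM (median 147) in the 9 Thalassoma fish. The rest had levels from 0 to 64.8 CPM (median 12.7) in the 8 Halichoeres fish, from 0 to 28.7 CPM (median 0) in the 8 Labrichthys fish and from 0 to 31.7 CPM (median 0) in the 9 Coris fish. One of the 25 other fish, a Halichoeres, passed the lowest fish of the pair. The pair itself was far from level, with Hemigymnus 2.00 above Thalassoma on the log2 scale (SE 0.28, edgeR). Its gap to the nearest other species was 2.35. ENSONIT00000013329.1 averaged 145 ± 63.02 CPM in Hemigymnus and 193 ± 60.9 CPM in Thalassoma (SD, n = 9 and 9), against 21.7 ± 22.8 CPM in Coris, 11.5 ± 15.9 CPM in Halichoeres and 4.63 ± 13.1 CPM in Labrichthys (SD, n = 9, 8 and 8). Its fish did not overlap, the only such case among the 5 higher transcripts of the pair (0.0517% of the 1936), and the gap was 2.29.

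Lower in Hemigymnus and Thalassoma, ENSONIT00000024534.1 ran from 0 to 34.7 CPM (median 0) in the 9 Hemigymnus fish and from 0 to 20.03 CPM (median 0) in the 9 Thalassoma fish. Otherwise it ranged from 32.4 to 412 CPM (median 177) in the 8 Halichoeres fish, from 57.4 to 242 CPM (median 105) in the 8 Labrichthys fish and from 0 to 129.6 CPM (median 63.7) in the 9 Coris fish. A single fish in each species of the pair held its counts, 1 count each, and 1 Coris fish also had none, which left a gap of 2.50 over 114 counts in all (97 without Halichoeres melanurus 7). ENSONIT00000018368.1 had 25.9 ± 28.2 CPM in Hemigymnus and 31.1 ± 17.8 CPM in Thalassoma (SD, n = 9 and 9), against 462 ± 115 CPM in Halichoeres, 167 ± 85.4 CPM in Coris and 139 ± 64.98 CPM in Labrichthys (SD, n = 8, 9 and 8). It was low but present in the pair, and 2 of the 25 other fish were under the highest fish of the pair, with a gap of 1.86. Of the 4 tested transcripts 1 differed between Hemigymnus and Thalassoma, the ENSONIT00000020119.1 above, where 49.8% of all tested did.

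Hemigymnus with Coris were higher in 9 of their 11 transcripts. ENSONIT00000019566.1 ran from 77.3 to 271 CPM (median 146) in the 9 Hemigymnus fish and from 63.7 to 324 CPM (median 187) in the 9 Coris fish. Other fish ranged from 0 to 107 CPM (median 47.2) in the 8 Labrichthys fish, from 0 to 69.8 CPM (median 55.02) in the 9 Thalassoma fish and from 0 to 68.6 CPM (median 11.4) in the 8 Halichoeres fish. The ranges met, since 3 of the 18 fish of the pair were below the highest other fish, and the gap was 1.60. ENSONIT00000014005.1 averaged 298 ± 139 CPM in Hemigymnus and 127 ± 102 CPM in Coris (SD, n = 9 and 9), against 35.97 ± 43.5 CPM in Thalassoma, 25.1 ± 25.6 CPM in Labrichthys and 13.6 ± 14.7 CPM in Halichoeres (SD, n = 9, 8 and 8). Hemigymnus was above Coris within the pair, and without Coris batuensis 4, its highest Coris fish, the largest step set Hemigymnus alone apart with a gap of 1.504. One of the 9 higher transcripts had no overlap of fish (0.0517% of the 1936).

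Lower in this pair, ENSONIT00000015876.1 ran from 0 to 97.1 CPM (median 0) in the 9 Hemigymnus fish and from 0 to 59.6 CPM (median 29.5) in the 9 Coris fish. In the 3 others it ran from 178 to 509 CPM (median 371) in the 8 Halichoeres fish, from 49.4 to 275 CPM (median 80.8) in the 9 Thalassoma fish and from 53.7 to 172 CPM (median 96.1) in the 8 Labrichthys fish. It was highest in Halichoeres, and 9 of the 25 other fish, none of them Halichoeres, were under the highest fish of the pair, with a gap of 1.79. ENSONIT00000021432.1 had 55.6 ± 56.1 CPM in Hemigymnus and 45.2 ± 59.99 CPM in Coris (SD, n = 9 and 9), against 164 ± 50.3 CPM in Thalassoma, 155 ± 104 CPM in Halichoeres and 127 ± 58.5 CPM in Labrichthys (SD, n = 9, 8 and 8). As many as 19 of the 25 other fish lay under its highest pair fish, and the gap of 1.07 was 0.922 without Hemigymnus melapterus 2 or 7, 0.959 without Labrichthys unilineatus 2 and 0.978 without Labrichthys unilineatus 8. The only tested transcript of the pair did not pass the test of Hemigymnus against Coris (edgeR, adjusted p = 0.493), as 38.8% of all tested did.

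Hemigymnus with Labrichthys held 5 of the 17 transcripts without overlap of fish, as many as Thalassoma with Labrichthys. ENSONIT00000008531.1, lower in the pair, had 2007 counts and ran from 231 to 492 CPM (median 388) in the 9 Hemigymnus fish and from 107 to 361 CPM (median 304) in the 8 Labrichthys fish. The other 3 species had levels from 2563 to 4466 CPM (median 2920.4) in the 9 Coris fish, from 1091 to 1771 CPM (median 1592) in the 9 Thalassoma fish and from 764 to 1657 CPM (median 1425) in the 8 Halichoeres fish. It was well detected in every fish, all 43 fish were on their own side, and the gap was 1.74. It is the most deeply counted transcript of the pair, and both sides of the split were measured in every fish. ENSONIT00000003762.1 averaged 0 CPM in all 9 Hemigymnus fish and 12.8 ± 17.8 CPM in Labrichthys (SD, n = 9 and 8), against 257 ± 275 CPM in Coris, 145 ± 83.01 CPM in Halichoeres and 125 ± 75.2 CPM in Thalassoma (SD, n = 9, 8 and 9). No Hemigymnus fish had a count of it, 5 of 8 Labrichthys fish had none either, and the Coris mean rested in part on Coris batuensis 10 with 945.9 CPM. Its gap was 2.57.

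Higher in Hemigymnus and Labrichthys, ENSONIT00000014016.1 ran from 34.7 to 431 CPM (median 258) in the 9 Hemigymnus fish and from 111 to 393 CPM (median 292) in the 8 Labrichthys fish. Among the rest it ranged from 0 to 68.6 CPM (median 12.7) in the 8 Halichoeres fish, from 0 to 27.5 CPM (median 20.2) in the 9 Thalassoma fish and from 0 to 31.7 CPM (median 0) in the 9 Coris fish. Only 1 fish of the pair was below the highest other fish, and the gap of 3.20 was the largest of this pair in either direction. ENSONIT00000003092.1 had 288 ± 89.7 CPM in Hemigymnus and 205 ± 72.6 CPM in Labrichthys (SD, n = 9 and 8), against 42.95 ± 30.8 CPM in Halichoeres, 34.6 ± 35.8 CPM in Coris and 12.6 ± 16.7 CPM in Thalassoma (SD, n = 8, 9 and 9). Its 43 fish were all on their own side without overlap, at a gap of 2.02. Of the 5 higher transcripts 3 and of the 9 lower ones 2 had no overlap of fish, and in each direction 0.155% of the 1936 had that split. Between Hemigymnus and Labrichthys 0 of the 5 tested transcripts passed at an adjusted p below 0.05 by edgeR or DESeq2. In edgeR 46.4% of all tested transcripts passed at that level. At an unadjusted p below 0.05 in edgeR, 0 of the 5 passed as well. For this unadjusted level too the share of all tested transcripts is not given, and nothing is read from the count.

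Thalassoma with Coris had 7 transcripts, none with full separation of fish, which 0.0517% of the 1936 showed with this pair higher and none with it lower. ENSONIT00000020894.1, higher in the pair, ran from 24.7 to 303 CPM (median 179.6) in the 9 Thalassoma fish and from 67.6 to 324 CPM (median 198) in the 9 Coris fish. The others ran from 18.8 to 98.5 CPM (median 30.8) in the 8 Labrichthys fish, from 0 to 114 CPM (median 43.8) in the 8 Halichoeres fish and from 0 to 109 CPM (median 26.1) in the 9 Hemigymnus fish. Thalassoma and Coris had similar medians, 4 of their 18 fish fell below the highest other fish, and the gap was 1.77. Of the 25 other fish, 17 were above the lowest fish of the pair, a Thalassoma. ENSONIT00000016512.1 averaged 91.6 ± 35.4 CPM in Thalassoma and 195 ± 81.9 CPM in Coris (SD, n = 9 and 9), against 30.96 ± 42.4 CPM in Hemigymnus, 25.7 ± 25.5 CPM in Halichoeres and 23.9 ± 23.8 CPM in Labrichthys (SD, n = 9, 8 and 8). The ranges overlapped for 6 of 18 fish of the pair (gap 1.31), and its 109 counts fell to 98 without Coris batuensis 4.

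Lower in the pair, ENSONIT00000012958.1 ran from 0 to 82.5 CPM (median 24.7) in the 9 Thalassoma fish and from 0 to 32.4 CPM (median 28.3) in the 9 Coris fish. Outside the pair it ran from 28.7 to 242 CPM (median 141) in the 8 Labrichthys fish, from 29.5 to 259 CPM (median 65.3) in the 8 Halichoeres fish and from 45.2 to 174 CPM (median 103) in the 9 Hemigymnus fish. Of the 25 other fish, 11 were under the highest fish of the pair, and the gap was 1.51. ENSONIT00000020078.1 had 145 ± 52.3 CPM in Thalassoma and 141 ± 112 CPM in Coris (SD, n = 9 and 9), against 496 ± 144 CPM in Labrichthys, 454 ± 196 CPM in Halichoeres and 319 ± 151 CPM in Hemigymnus (SD, n = 8, 8 and 9). It had 442 counts, but its gap of 1.09 was 0.935 without Hemigymnus melapterus 1, 0.961 without Coris batuensis 1 or 10, 0.971 without Thalassoma lunare 2 and 0.989 without Hemigymnus melapterus 5. Between Thalassoma and Coris 1 of the 3 tested transcripts differed, against 51.4% of all tested.

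Thalassoma with Labrichthys, a cleaner and a non-cleaner, held the largest gap of the 116. ENSONIT00000018093.1, higher in the pair, ran from 489 to 1009.7 CPM (median 799.8) in the 9 Thalassoma fish and from 492 to 1117 CPM (median 698) in the 8 Labrichthys fish. Others had levels from 0 to 97.2 CPM (median 14.7) in the 8 Halichoeres fish, from 0 to 59.6 CPM (median 0) in the 9 Coris fish and from 0 to 34.7 CPM (median 0) in the 9 Hemigymnus fish. Every fish of the pair was at 489 CPM or more and no other fish passed 97.2 CPM, for a gap of 4.22. ENSONIT00000001298.1 averaged 191 ± 65.1 CPM in Thalassoma and 144 ± 66.2 CPM in Labrichthys (SD, n = 9 and 8), against 6.87 ± 12.8 CPM in Halichoeres, 3.15 ± 9.44 CPM in Coris and 0 CPM in all 9 Hemigymnus fish (SD, n = 8, 9 and 9). It too separated all fish, with 121 counts in all and a gap of 3.19. The same 0.155% of the 1936 transcripts had no overlap of fish for this pair higher, 3 in number, and all 3 are among its 8 higher transcripts.

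Lower in Thalassoma and Labrichthys, ENSONIT00000012176.1 had 1496 counts and ran from 77.4 to 248 CPM (median 220.3) in the 9 Thalassoma fish and from 0 to 115 CPM (median 60.7) in the 8 Labrichthys fish. Elsewhere it was found from 2118 to 4465 CPM (median 2915) in the 9 Hemigymnus fish, from 825 to 2853 CPM (median 2039.7) in the 8 Halichoeres fish and from 442 to 1124 CPM (median 743) in the 9 Coris fish. The fish did not overlap, Hemigymnus was above Coris and Halichoeres, and within the pair Thalassoma was 1.67 above Labrichthys on the log2 scale (SE 0.39, edgeR), with a gap of 2.01. ENSONIT00000001546.1 had 58.4 ± 48.1 CPM in Thalassoma and 51.7 ± 40.6 CPM in Labrichthys (SD, n = 9 and 8), against 672 ± 240.5 CPM in Halichoeres, 445 ± 123 CPM in Coris and 265 ± 165 CPM in Hemigymnus (SD, n = 8, 9 and 9). Of its 26 other fish 3 were under the highest fish of the pair, and the gap was 2.01. Of the 5 lower transcripts 2 had no overlap of fish (0.103% of the 1936). Thalassoma and Labrichthys differed in 4 of the 9 tested transcripts, where 49.5% of all tested did. The transcript with the most counts among the 116, ENSONIT00000004952.1 with 3375 and chosen here for that, averaged 5653 ± 1317 CPM in Thalassoma and 2994 ± 1185 CPM in Labrichthys (SD, n = 9 and 8), against 577 ± 244 CPM in Hemigymnus, 505 ± 222 CPM in Coris and 187 ± 59.7 CPM in Halichoeres (SD, n = 9, 9 and 8). Its lowest fish of the pair, a Labrichthys at 1352 CPM, was above the highest other fish, a Coris at 1014 CPM.

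**Figure D3:**
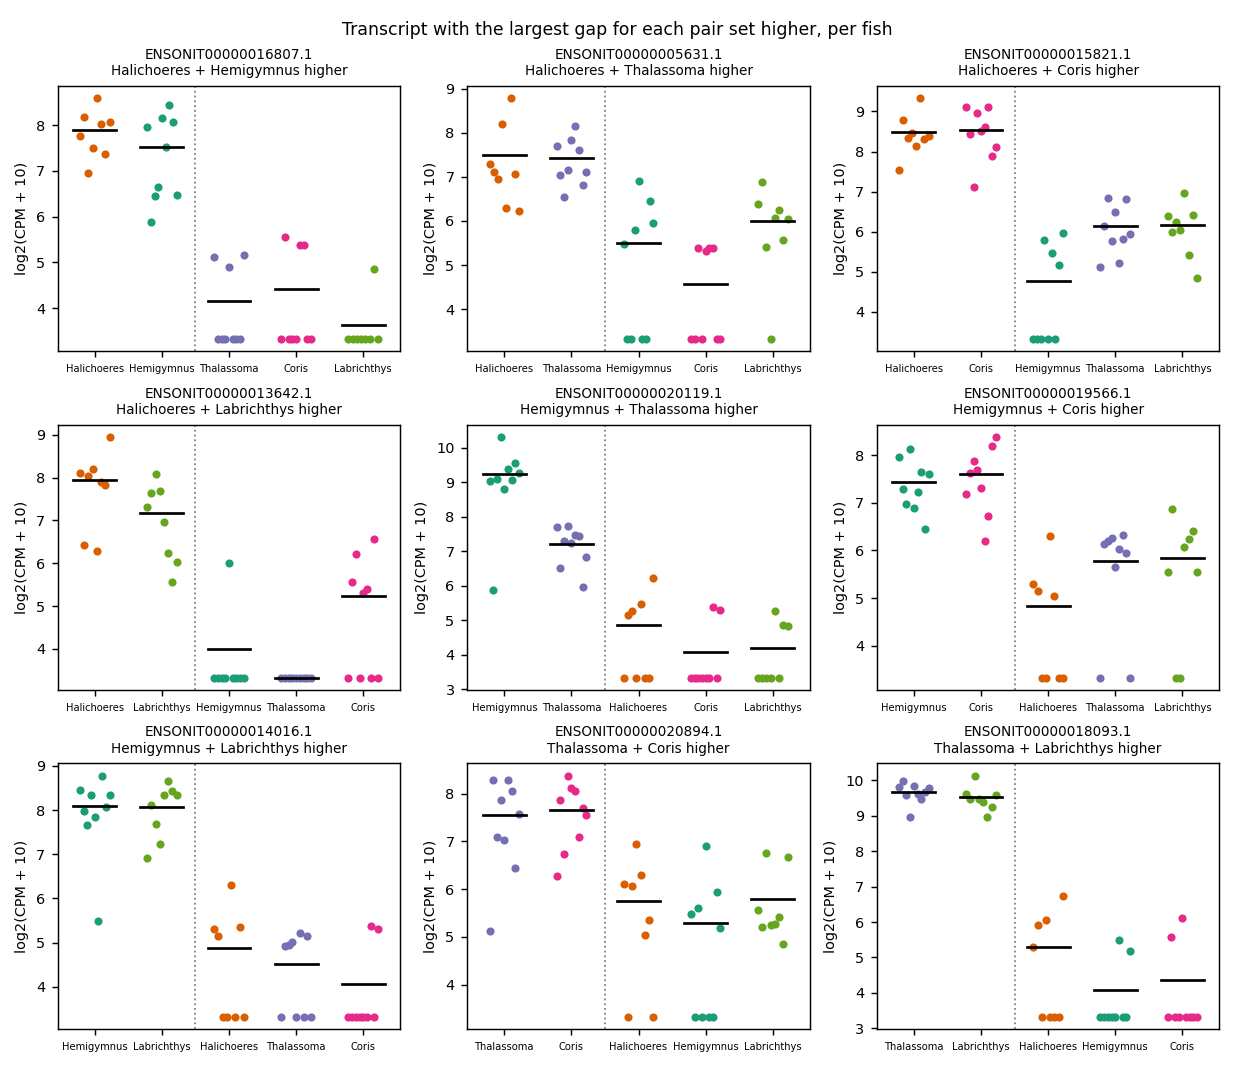
Each fish's log2(CPM + 10) for the transcript with the largest gap of each pair set higher, with the pair left of the dotted line and the other 3 species right of it (points are fish, bars are the log2 of the species mean plus 10). In ENSONIT00000018093.1 every Thalassoma and Labrichthys fish is above all others, while in ENSONIT00000005631.1 4 of 17 fish of the pair are below the highest other fish.

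**Figure D4:**
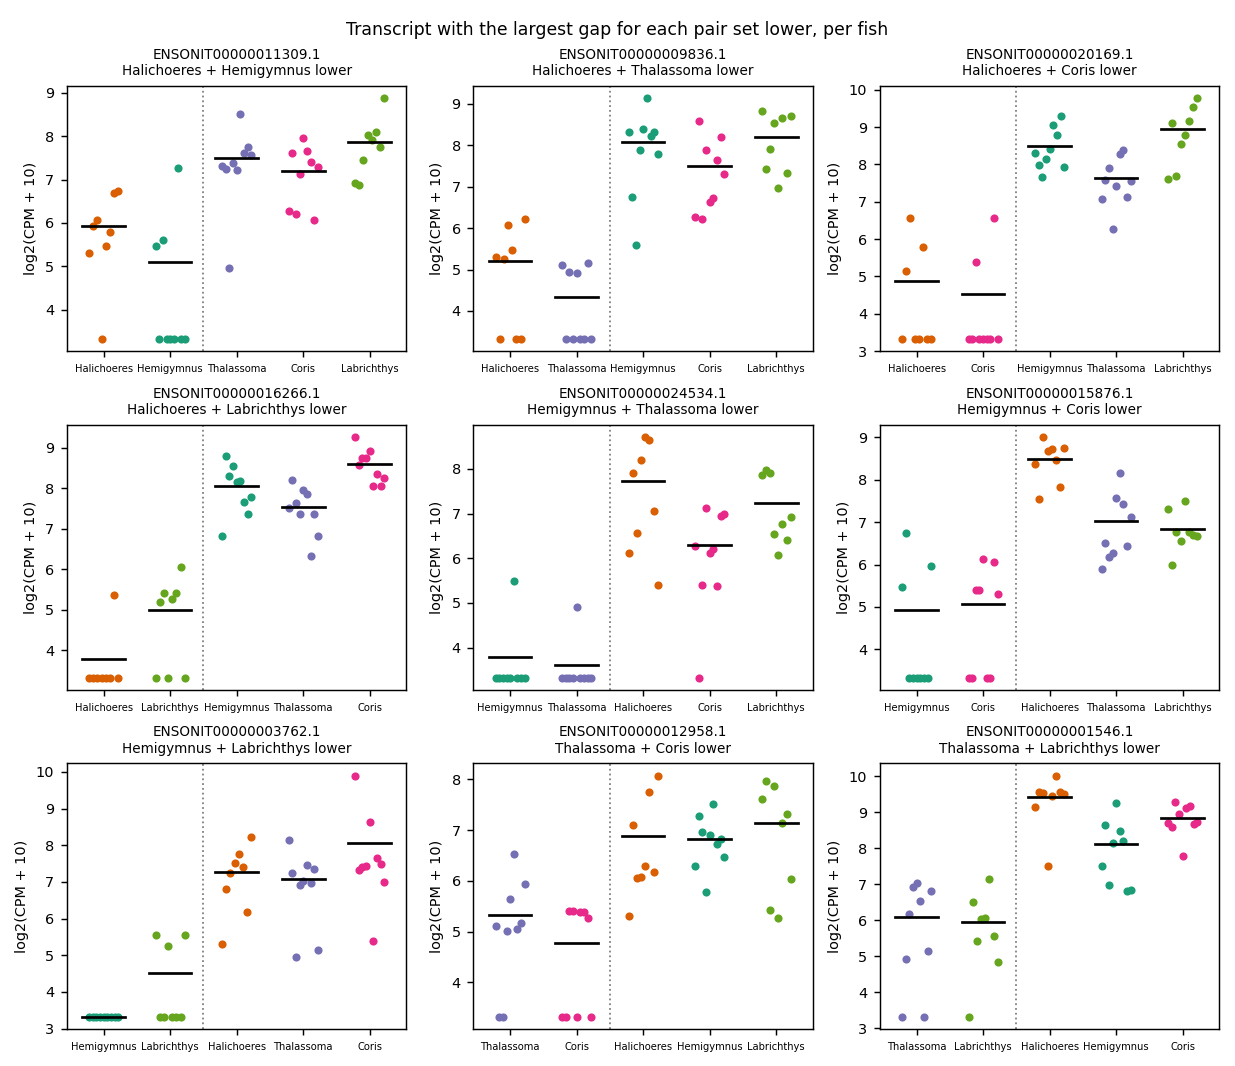
Each fish's log2(CPM + 10) for the transcript with the largest gap of each pair set lower, drawn in the same way (points are fish, bars are the log2 of the species mean plus 10, the pair is left of the dotted line). The 16 Halichoeres and Labrichthys fish lie below all others in ENSONIT00000016266.1, while in ENSONIT00000012958.1 11 of 25 other fish lie under the highest fish of the pair.

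Of the 116 transcripts, 47 had enough counts for the edgeR fit over 43 libraries and 69 did not. In all, 11 of these 47 differed between the 2 species of their own pair at an adjusted p below 0.05 (23.4%), and over the 9 contrasts an average of 44.7% of the 701 tested transcripts did. The rule itself keeps the step inside a pair smaller than the gap, so nothing is read from the lower share. Between cleaners and non-cleaners 20 of the 47 differed (42.6%), where 41.5% of all tested did. Of these, 7 were higher in cleaners (17.8% of all tested) and 13 lower (23.7%). Every tested transcript of the pairs made of 2 cleaners was among the 20, but only some of those of the other pairs were. When 2 cleaners are set apart, both non-cleaners lie on the other side, so the rule largely builds this in. The rule used the same species means, so nothing is read from these counts either. The status test set the mean of 3 species against the mean of 2, with the spread taken between fish within species. It thus cannot tell cleaning status from other differences between these species.

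The 3 libraries left out give the only fish that the choice did not use. The rule that left them out by name was set with earlier results of these data known. They are therefore no independent check of the split, and their positions are a description. In 79 of the 116 transcripts Halichoeres and Thalassoma were on opposite sides of the split. The library labelled Thalassoma lunare 4 was on the Thalassoma side in 15 of these 79 and on the Halichoeres side in 64. The library labelled Halichoeres melanurus 2 was on the Halichoeres side in 10 and on the Thalassoma side in 69. In the 37 transcripts with both species on 1 side, these libraries were on that side in 32 and 33.

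Summed levels showed the same. Over the 35 transcripts with Halichoeres on the high side and Thalassoma on the low side, the sum was 9059 CPM in the library labelled Thalassoma lunare 4 and 2579 CPM in that labelled Halichoeres melanurus 2. Other Halichoeres libraries had 8991 to 14717 CPM and other Thalassoma libraries 1844 to 2613 CPM. Over the 44 transcripts with Thalassoma high and Halichoeres low, the library labelled Thalassoma lunare 4 had 2373 CPM and that labelled Halichoeres melanurus 2 had 22888 CPM. Other Thalassoma libraries had 14197 to 18959 CPM and other Halichoeres libraries 2005 to 2489 CPM. Of the 22888 CPM, 11869 came from ENSONIT00000004952.1, which was at 3845 to 7584 CPM in the 9 Thalassoma fish used in the choice. Each library is 1 sample, so there is no test, and the labels were kept. With all 46 libraries as labelled the step between the pair and the rest was 2.63 in ENSONIT00000018093.1, 1.74 in ENSONIT00000016807.1 and 1.66 in ENSONIT00000001298.1, against 4.22, 3.12 and 3.19 with 43.

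The library labelled Hemigymnus melapterus 4 had few counts, 1 being worth 144 CPM. It was on the high side in 25 of the 69 transcripts that were high in Hemigymnus and on the low side in 39 of the 47 that were low. A transcript with no count always falls on the low side, and only 10 of the 47 had a count. The 39 was thus largely set by the low depth of this library. Its sum over the 69 was 20329 CPM, from 141 counts in 30 of them, within the 19198 to 22663 CPM of other Hemigymnus libraries and above the 6132 to 15336 CPM of other species. Over the 47 it had 3749 CPM from 26 counts, against 2575 to 3588 CPM in other Hemigymnus libraries and 8317 to 19505 CPM in other species. Summed over many transcripts, its level was thus near that of its labelled species, while single transcripts were too thinly counted to place it.

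**Figure D5:**
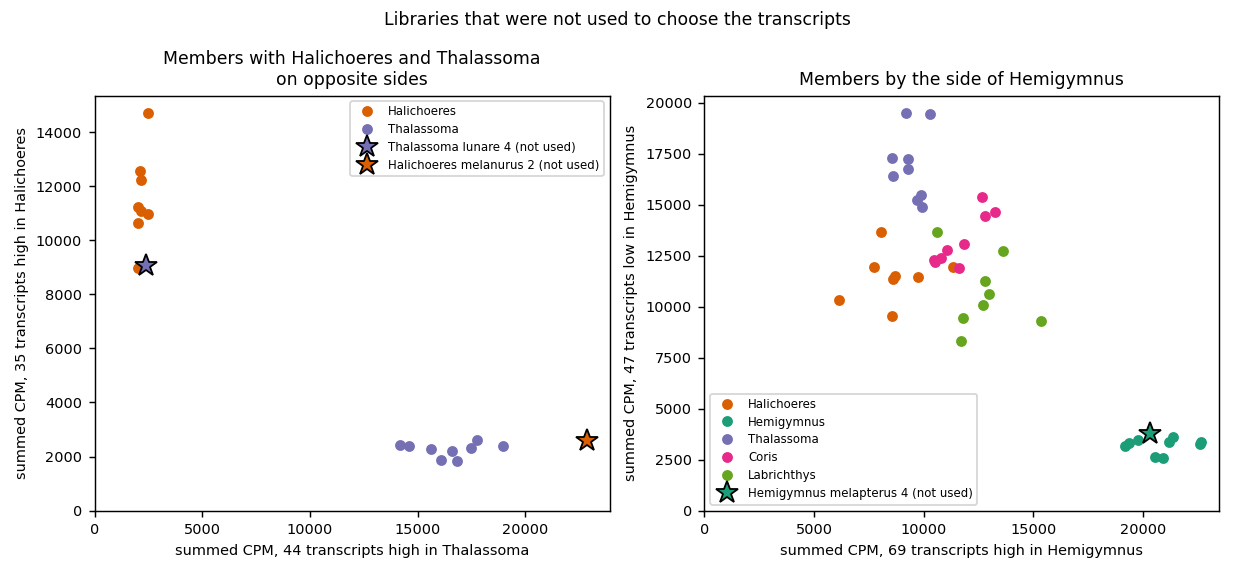
Summed CPM of the transcripts high in Halichoeres and low in Thalassoma (35), high in Thalassoma and low in Halichoeres (44), high in Hemigymnus (69) and low in Hemigymnus (47), one point per library by species, with the 3 libraries not used in the choice marked. Thalassoma lunare 4 lies with Halichoeres and Halichoeres melanurus 2 with Thalassoma (9059 CPM and 2579 CPM in the first set). In the Hemigymnus sets the library labelled Hemigymnus melapterus 4 lies near its own species (20329 CPM in the third).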

How the data were processed

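One forebrain slice of each of 46 fish was measured by 3′ tag sequencing, in which cDNA primed from the poly-A end is amplified by PCR, per the labels' protocols. Tools listed in the submitters' processing notes are cutadapt 2.8, BWA and SAMtools, with no step given for each; neither the reference nor the program that counted reads is given in the sources used here. Each library has 2 tables of unnormalized read counts as deposited, judged so because all values are whole and totals differ between libraries: 26788 ENSONIT identifiers with 1 unnamed line that held 0 counts, and 28134 Ldim_g identifiers with 5 lines for reads given to no gene, which took 95.2% of the reads there and were left out. Groups are the species named in the sample titles, and replicates are the forebrain section samples numbered there, each taken as 1 fish. Where nothing says how the numbered samples were kept apart in the laboratory, p-values measure the spread between these samples only.

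CPM was computed over all ENSONIT lines and the rule applied to 43 libraries. The members, lists and settings were chosen with earlier results of these data known, and the 3 libraries were left out by the rule. Transcripts were named as the 2 with the largest gap for each pair and direction; others are said to be chosen after their values were seen. In R 4.3.3, edgeR 4.0.16 (filterByExpr by species at its defaults of 10 counts and 15 in total, TMM, quasi-likelihood with 1 coefficient per species) tested 701 transcripts holding 57.4% of the counts, with a biological coefficient of variation of 0.192. Benjamini-Hochberg adjustment ran over all tested transcripts of a contrast, with a threshold of 0.05, and each standard error is the fold change over the root of its F statistic. The edgeR step and the rule were tested on simulated data. DESeq2 1.42.0 was an alternative, as were other pseudocounts, totals, gaps, scalings, the species median, the Ldim_g counts, all 46 libraries and leaving out each library, the last chosen after seeing the data. No batch is stated. None of 190 pairs of libraries within a species was identical, and the highest p of a chi-square test between them, over transcripts with at least 20 counts, was 8.61e-09.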

Additional observations from a re-analysis of the deposited data

Results flagged for a closer look

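In each of the 36 named transcripts and 5 species, 180 groups in all, the highest and the lowest fish were compared with the other fish of their group. In 23 groups (12.8%) 1 fish stood apart by Dixon's gap test, always on the high side. The nominal chance rate of about 1 group in 20 holds for normally distributed values and was not computed for these data. With few counts, many at 0, a lone count is easily picked, so nothing is read from the difference. In 11 of the 23 the fish had 2 counts or fewer.

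Of fish with more counts, 6 were in the pair of their transcript. Halichoeres melanurus 6 had 514 CPM of ENSONIT00000016254.1 (next fish 259 CPM) and Halichoeres melanurus 5 had 457 CPM of ENSONIT00000004313.1 (next 240.1 CPM). Coris batuensis 4 had 358 CPM of ENSONIT00000014005.1 (next 194 CPM), Labrichthys unilineatus 2 had 1117 CPM of ENSONIT00000018093.1 (next 778 CPM), and in pairs set lower Hemigymnus melapterus 7 had 144 CPM of ENSONIT00000011309.1 (next 38.5 CPM) and Coris batuensis 8 had 84.9 CPM of ENSONIT00000020169.1 (next 32.1 CPM).

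Outside the pair, Labrichthys unilineatus 8 had 463 CPM of ENSONIT00000011309.1, Coris batuensis 1 had 373 CPM of ENSONIT00000025677.1 and Labrichthys unilineatus 10 had 370.4 CPM of ENSONIT00000012351.1. Thalassoma lunare 5 had 140.2 CPM of ENSONIT00000014005.1, Halichoeres melanurus 1 had 383 CPM of ENSONIT00000021432.1 and Coris batuensis 10 had 945.9 CPM of ENSONIT00000003762.1, where the next Coris fish had 387 CPM.

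The other 11 values rest on 1 or 2 counts. In the pair, Coris batuensis 10 had 67.6 CPM of ENSONIT00000010667.1, Halichoeres melanurus 8 had 31.03 CPM of ENSONIT00000016266.1, and Hemigymnus melapterus 6 and Thalassoma lunare 5 had 34.7 and 20.03 CPM of ENSONIT00000024534.1. Outside it, Labrichthys unilineatus 7 had 18.8 CPM of ENSONIT00000016807.1, Hemigymnus melapterus 5 had 54.6 CPM of ENSONIT00000013642.1 and 109 CPM of ENSONIT00000020894.1, and Labrichthys unilineatus 8 had 37.05 CPM of ENSONIT00000013329.1. Halichoeres melanurus 6 had 68.6 CPM of both ENSONIT00000019566.1 and ENSONIT00000014016.1, and Coris batuensis 8 had 28.3 CPM of ENSONIT00000001298.1.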

How the results depend on the processing

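The number of transcripts that met the rule moved with its thresholds. Against 116, there were 269 with a minimum total of 50, 45 with 200, 50 with a gap of 1.5 and 63 with a pseudocount of 50 CPM. It was 140 with a pseudocount of 1 (108 shared), 130 with TMM (96 shared), 133 with DESeq2 size factors (77 shared), 137 with species medians (81 shared) and 188 on the Ldim_g counts. Leaving out 1 library gave 110 to 123.

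Pair counts that moved are given in the order of settings, with Hal, Hem, Tha, Cor and Lab for the genera. Pseudocount 1 gave Hal with Tha 19 and Hem with Cor 19. Pseudocount 50 gave Hal-Hem 3, Hal-Tha 7, Hal-Cor 15, Hal-Lab 6, Hem-Cor 5, Hem-Lab 8 and Tha-Cor 1. Total 50 gave Hal-Hem 18, Hal-Tha 32, Hal-Cor 52, Hal-Lab 25, Hem-Tha 23, Hem-Cor 29, Hem-Lab 44, Tha-Cor 16 and Tha-Lab 30. Total 200 gave Hal-Hem 1, Hal-Tha 7, Hal-Cor 11, Hal-Lab 5, Hem-Tha 4, Hem-Cor 1, Hem-Lab 4 and Tha-Cor 3. Gap 1.5 gave Hal-Hem 2, Hal-Tha 4, Hal-Cor 16, Hal-Lab 3, Hem-Cor 3, Hem-Lab 6, Tha-Cor 2 and Tha-Lab 7. TMM gave Hem-Tha 16 and Tha-Cor 4. DESeq2 size factors gave Hal-Hem 13, Hal-Lab 9, Hem-Cor 17 and Tha-Lab 22, and species medians Hal-Hem 15. All 46 libraries gave Hal-Tha 31, Hal-Cor 14, Hem-Cor 21 and Tha-Cor 3. The Ldim_g counts gave Hal-Hem 11, Hal-Tha 26, Hem-Lab 32, Tha-Cor 18 and Tha-Lab 22. By construction a higher minimum total or gap only removes transcripts, and a lower minimum total only adds them. A larger pseudocount makes every step between species smaller, but can also change which step is the largest. The cause was not tested for the other settings. DESeq2 size factors moved all transcripts by 0.36 in Thalassoma, -0.29 in Hemigymnus, -0.16 in Coris and 0.14 in Labrichthys on the log2 scale, and TMM by -0.18 in Hemigymnus and 0.14 in Thalassoma. Of 252 values of the gap of named transcripts, 231 stayed within the spread between replicates, 21 moved and 0 changed sign.

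Members that differed within their pair numbered 7 of 47 with 46 libraries, where 720 transcripts were tested, against 11 where 701 were. Members that differed by status numbered 32 of 116 without a filter on low counts (1020 of all 25207), against 20 of 47 (291 of all 701). All 116 members have 100 counts or more, while only 1936 transcripts do. The share of the 116 and that of the 25207 are thus not alike in depth, and nothing is read from their difference. With a replicate block on the sample number the counts were 10 within the pair and 21 by status (279 of all 701). The share of all tested transcripts that differed within pairs is not given for these settings, so nothing is read from the within-pair counts. No sign that the numbers pair the fish was seen in these values. In deviations from species means, 73 same-numbered pairs of libraries from different species had a median correlation of -0.0127 (-0.264 to 0.206). Of 43 libraries, 0 correlated best with their own number. Such correlations cannot show that same-numbered fish shared no step of handling. Depth limits the rule, since 71 of the 116 transcripts had fewer than 200 counts over 43 fish.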

Other observations

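The member with the largest spread between fish owed a species mean mostly to a single fish. ENSONIT00000021545.1, chosen after its values were seen because of that spread (15.7 on the scale of the report), was taken by the rule as higher in Hemigymnus with Labrichthys. Labrichthys unilineatus 10 had 56 counts of it, or 2074 CPM, while the other 7 Labrichthys fish averaged 12.7 ± 16.7 CPM (SD, n = 7). With that fish the Labrichthys mean is 270.4 CPM.

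Of the 116, 3 pairs of identifiers carry numbers 1 or 2 apart, and were also chosen after their values were seen. ENSONIT00000004147.1 and ENSONIT00000004148.1 are both higher in Halichoeres with Coris and had equal counts in 9 of 43 libraries. ENSONIT00000014004.1 and ENSONIT00000014005.1 are both higher in Hemigymnus with Coris and had equal counts in 11. ENSONIT00000012174.1 and ENSONIT00000012176.1 both set Thalassoma with Labrichthys apart but in opposite directions, the first higher in the pair and the second lower, and had equal counts in 0. The files do not record whether such neighbours belong to 1 gene, and reads shared between near-identical transcripts could be split between them. ENSONIT00000004147.1 and ENSONIT00000004148.1 had 3 counts each over all Hemigymnus fish used, and equal values come easily at such counts. No rate of equal counts for other transcripts is given, so nothing is read from these numbers.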
